A study of Drosophila melanogaster with 2 samples.

Results

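The microRNA genes of Drosophila melanogaster were examined for peaks of the GFP-tagged protein encoded by CG9437 (hng1, hinge1), a member of the MADF-BESS family of DNA-binding proteins. The members are all 260 genes of the Ensembl annotation (release 115) on the nuclear chromosome arms whose symbol starts with mir-, which includes bantam (mir-ban) and let-7 (mir-let7), out of 23685 annotated genes. They were chosen by name, not by their peaks. In addition, 2 copies on an rDNA scaffold were left out. A member was called bound here if a peak summit lay within 2000 bp of its precursor hairpin, and 43 of 260 (16.5%; exact Clopper-Pearson 95% interval 12.2 to 21.6) had a summit of the final peak list at that distance.

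The chromatin came from whole embryos of mixed sex, 0 to 16 hours old, and was assayed by ChIP-seq (sequencing of immunoprecipitated chromatin) in 1 transgenic line that stably expresses CG9437 with GFP at its C terminus. The labels tie the insertion to hng1, and both replicates share it, with no second genotype, treatment or age. The 2 biological replicates form 1 group, so every comparison is between places in the genome. One free-text label names the samples as input controls, whereas the assay and antibody labels and the deposited file types describe a transcription factor ChIP, and the lists are taken as such here. The depth is unknown. Whole embryos mix many cell types, and a peak in few cells cannot be told apart from a weak peak in many.

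MicroRNAs are short RNAs cut from hairpins by Drosha and Dicer-1 and loaded into AGO1, and they repress messenger RNAs that pair with their seed, here bases 2 to 8. In flies, a hairpin can lie in its own noncoding transcript, in an intron of a host gene with which it is transcribed, or in a cluster of hairpins made from 1 precursor. Bantam promotes growth and blocks cell death, and the mir-2/mir-13 family is known to target proapoptotic genes.

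The mature products of the members that the results turn on are shown first, to let the reader see which members share a seed. They were read from the RefSeq annotation and genome (dm6), are written 5′ to 3′ with T for U, and the seed is in capitals. The first 4 share 1 seed, and mir-92a and mir-92b share another.
mir-2b-1 (3′ arm, 2L): tATCACAGccagctttgaggagc
mir-2c (3′ arm, 3R): tATCACAGccagctttgatgggc
mir-13a (3′ arm, 3R): tATCACAGccattttgatgagt
mir-13b-1 (3′ arm, 3R): tATCACAGccattttgacgagt
mir-92a (3′ arm, 3R): cATTGCACttgtcccggcctat
mir-92b (3′ arm, 3R): aATTGCACtagtcccggcctgc
mir-ban (3′ arm, 3L): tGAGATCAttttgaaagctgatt
mir-279 (3′ arm, 3R): tGACTAGAtccacactcattaa
mir-282 (5′ arm, 3L): tAGCCTCTactaggctttgtctgt
mir-275 (3′ arm, 2L): tCAGGTACctgaagtagcgcgcg
mir-305 (5′ arm, 2L): aTTGTACTtcatcaggtgctctg

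The sequence beneath 8 final summits near members is shown next, so that the word counts given later can be read against the letters. The first 6 are the strongest summits, in order of signal, after those near mir-4977, mir-8, mir-3643 and mir-4978 were left out for their chromosome arm and not for their letters. The last, near mir-4942 and mir-87, are weaker and were added because they hold more than 1 copy of the word ACGTAA, so the set holds that word more often than the summits as a whole. Each window reaches 50 bp to either side of the summit on the plus strand of dm6. Capitals mark ACGTAA (on either strand) or ATCGAT.
near mir-9374 (chr2L:21237084-21237184): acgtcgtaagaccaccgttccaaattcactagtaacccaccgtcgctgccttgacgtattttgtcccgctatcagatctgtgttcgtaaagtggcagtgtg
near mir-13b-1, mir-13a and mir-2c (chr3R:15417905-15418005): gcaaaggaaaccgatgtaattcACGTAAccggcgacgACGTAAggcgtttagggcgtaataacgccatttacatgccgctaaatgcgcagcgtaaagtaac
near mir-2b-1 (chr2L:8257550-8257650): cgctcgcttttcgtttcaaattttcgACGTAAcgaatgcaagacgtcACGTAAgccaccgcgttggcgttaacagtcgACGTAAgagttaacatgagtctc
near mir-9380 (chr3R:8349417-8349517): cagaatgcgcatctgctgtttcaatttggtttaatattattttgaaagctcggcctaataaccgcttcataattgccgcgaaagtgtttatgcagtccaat
near mir-282 (chr3L:3250164-3250264): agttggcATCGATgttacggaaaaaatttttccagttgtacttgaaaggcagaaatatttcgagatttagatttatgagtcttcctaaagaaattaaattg
near mir-279 (chr3R:29214387-29214487): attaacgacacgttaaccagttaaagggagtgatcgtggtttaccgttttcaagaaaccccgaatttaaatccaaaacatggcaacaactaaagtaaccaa
near mir-4942 (chr3L:23338140-23338240): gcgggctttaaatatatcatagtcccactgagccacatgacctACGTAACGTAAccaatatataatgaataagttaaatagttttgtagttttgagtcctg
near mir-87 (chr2L:9948438-9948538): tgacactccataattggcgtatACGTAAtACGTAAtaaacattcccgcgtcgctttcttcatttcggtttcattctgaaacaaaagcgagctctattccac

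The authors deposited 30000 candidate regions for the pooled replicates and for each replicate, and a final list of 6091 peaks. Each peak carries the authors' signal value, which is used here to rank peaks within 1 list only. The final list was the same as the 6091 pooled candidates of highest signal, with values from 148.3 to 19973.8. A member with a candidate but no final summit therefore lay near a weaker region of the same list.

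Of the 137547960 bases of the arms, 13.2% lay within 2000 bp of a final summit, a value inside the interval of the 16.5% of hairpins. Of other genes, 28.6% of 290 tRNA genes, 38.7% of 269 snoRNA genes and 32.4% of the 5′ ends of 13968 protein-coding genes had one at that distance, and 30.1% of the 17536 5′ ends of all other genes. A pooled candidate lay near 146 hairpins (56.2%; exact interval 49.9 to 62.3), against 44.3% of the bases of the arms, 72.4% of tRNA genes, 70.6% of snoRNA genes, 66.1% of protein-coding 5′ ends and 64.2% of all other 5′ ends. These counts are descriptions without a test, and clustered hairpins share summits. The count depends on the distance allowed: 15 members had a final summit within 500 bp, 30 within 1000 bp and 92 within 5000 bp, against 3.88%, 7.27% and 26.5% of the arm bases. The members were 5.77%, 11.5% and 35.4% of the 260 at those distances, each above the share of bases. Intervals were computed at 2000 bp only, so the statement that the share of bases lies inside holds for that distance alone.

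The 43 members lay near 61 distinct final summits, and 21 of them had more than 1. The signal of these summits ran from 148.5 to 4962.6 with a median of 358.9, beside a median of 257.8 for all final summits. None lay inside a hairpin. Of the 258 pooled candidates near members, 61 were final (23.6%), beside 20.3% of all pooled candidates. A further 103 members had a pooled candidate but no final summit, and 82 had no candidate in any of the pooled or replicate lists. Many summits had a close neighbour: 27 of 61 (44.3%) lay within 300 bp of another final summit, beside 28.9% of all final summits. The smallest gap between summits in the final list was 199 bp.

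The strongest summit near a microRNA gene had a signal of 4962.6 (rank 64 of 6091) and lay 1167 bp upstream of mir-9374, an exonic hairpin of the nuclear receptor gene Hr39. Its signal was 2888.5 in replicate 1 (rank 57) and 2141.9 in replicate 2 (rank 77). The summit was at position 21237134 of 2L, at -116 bp from the transcription start site (TSS) of Hr39, where negative values are upstream, and CG31626 also starts within 500 bp. The summit therefore counts for the host promoter as well as for the hairpin.

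The next strongest summits belonged to hairpins with the same seed, on different arms. The cluster of mir-13b-1, mir-13a and mir-2c on 3R shared a summit of 3496.5 (rank 84), 480, 339 and 110 bp upstream of the hairpins, with 1506.1 in replicate 1 (rank 95) and 2048.1 in replicate 2 (rank 81). This summit lay in an exon of lncRNA:CR45911, the noncoding gene that holds the cluster, and not within 500 bp of any TSS. A weaker summit of 234.5 lay farther upstream. Near mir-2b-1, in an exon of the tyrosine kinase gene Btk on 2L, the summit had 3303.8 (rank 88), with 1355.2 in replicate 1 (rank 111) and 1977.1 in replicate 2 (rank 86). It lay 1016 bp downstream of the hairpin and at -98 bp from the TSS of another gene, CG8086. A neighbour of 1131.2 stood 810 bp from the hairpin, and its rank differed between the replicates, at 860 and 187.

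Of all 14 members with the seed ATCACAG, 5 had a final summit: mir-2b-1, mir-2c, mir-13a, mir-13b-1 and mir-308. They come from 3 loci, and the 3 members of the cluster count the same peak. Over all members the share was 16.5% and over arm bases 13.2%, and with so few loci no difference is read from this count or from those of other seeds. mir-308 lies in an intron of RpS23, a ribosomal protein gene on 2R, whose promoter held summits of 435.7 and 392.3, 1164 and 805 bp upstream of the hairpin. The other 9, which are mir-2a-1, mir-2a-2, mir-2b-2, mir-5, mir-6-1, mir-6-2, mir-6-3, mir-11 and mir-13b-2, had none. The next largest seed group, ATTGCAC, had 2 of 6, mir-92a and mir-92b, while mir-310, mir-311, mir-312 and mir-313 had candidates only. In all, 33 seeds were shared by more than 1 member, and 8 of these had a member with a final summit.

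**Figure D1:**
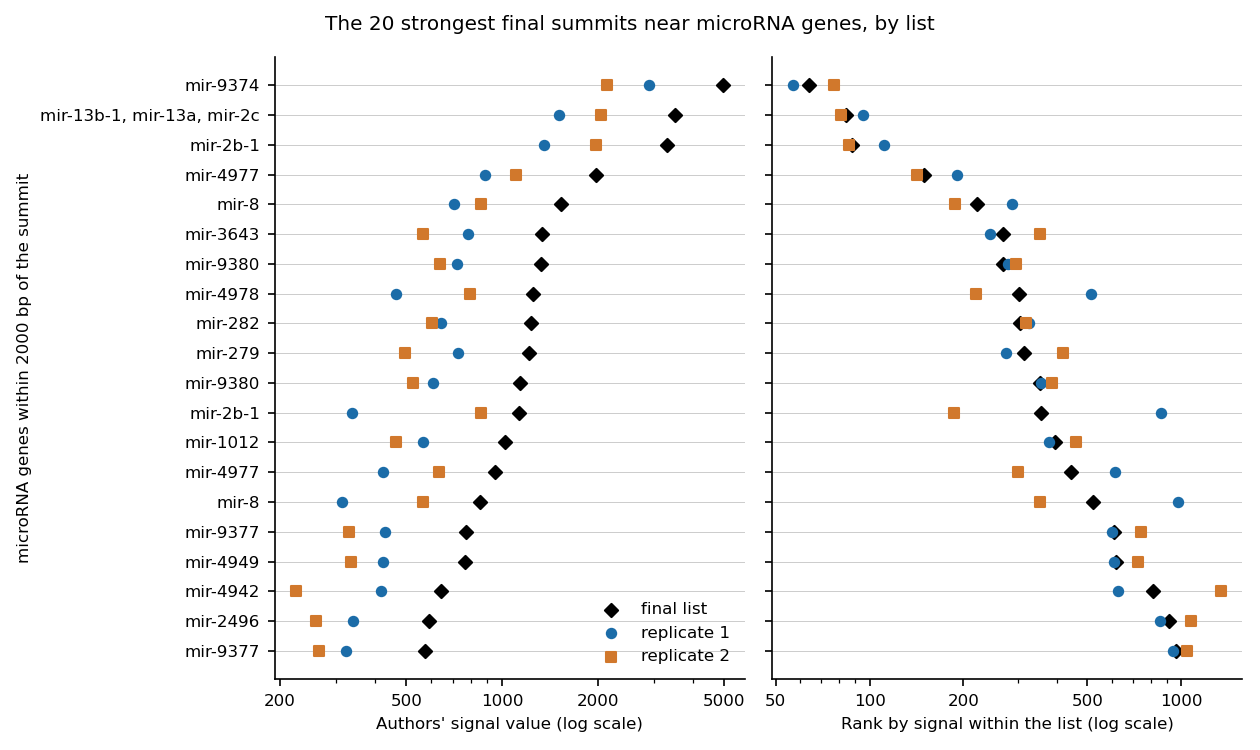
The 20 strongest final summits near microRNA genes, one per row, with the authors' signal value (left, log scale) and the rank by signal within each list (right, log scale). Diamonds stand for the final list, circles for replicate 1 and squares for replicate 2. The summits near mir-9374, the mir-13b-1 cluster and mir-2b-1 hold ranks 64, 84 and 88 in the final list, and the second mir-2b-1 summit has ranks 860 and 187 in the replicates.

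Several well-studied microRNAs had a final summit at the start of their own noncoding transcript. mir-8, a growth regulator related to the vertebrate miR-200 family, lies in an exon of lncRNA:CR43650 on 2R and had summits of 1533.5 (rank 221) and 852.0 (rank 522), 1100 and 901 bp upstream. In the replicates, the stronger one had 707.6 (rank 287) and 858.7 (rank 188). It lay -357 bp from a TSS of that transcript. A stronger summit of 3578.7 (rank 81) stood at another start of lncRNA:CR43650, at -2589 bp from the hairpin and so outside the 2000 bp limit, with ranks of 91 and 80 in the replicates. mir-282 had 1237.0 (rank 304), 808 bp upstream and -380 bp from the TSS of lncRNA:CR43626, with 640.6 in replicate 1 and 602.5 in replicate 2 (ranks 325 and 318). mir-279, which prevents the formation of extra carbon dioxide-sensing neurons, had 1218.7 (rank 313), 1148 bp upstream and -125 bp from the TSS of lncRNA:CR31044. The replicate ranks were 273 and 418. Its cluster partner mir-996 shares the seed GACTAGA and the same transcript, but the same summit was 2747 bp away, so that mir-996 was not counted.

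Bantam had weaker peaks. Its stronger summit had a signal of 493.1 (rank 1235), 1473 bp upstream of the hairpin in an exon of lncRNA:CR43334, with 254.4 in replicate 1 (rank 1352) and 241.9 in replicate 2 (rank 1203). A second one of 206.3 lay 362 bp downstream. Neither was within 500 bp of a TSS, and no final summit lay at a start of lncRNA:CR43334. mir-14, a suppressor of cell death, had 197.1 (rank 4349), 247 bp downstream, with a matching summit within 100 bp in replicate 2 (97.09) and none in replicate 1. mir-277, which acts on branched-chain amino acid breakdown, had 282.8 (rank 2675) near the edge of the window, 1924 bp upstream. mir-375 had 166.6 and 161.6, among the weakest of all members.

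The other hairpins among the 20 strongest summits lay in or beside protein-coding genes. mir-4977, in an exon of Eaf, a gene of transcription elongation, had 1974.4 (rank 150) and 947.6 (rank 443) within 500 bp of the Eaf TSS. The stronger had 882.4 and 1108.2 in replicates 1 and 2. mir-3643, in an intron of the oligosaccharyltransferase subunit gene OstDelta, had 1334.8 (rank 267), 9 bp from that TSS, with 779.0 and 562.6 in replicates 1 and 2. A second summit of mir-3643 had 189.5 (rank 4560), -203 bp from the same TSS, with ranks of 11136 and 1744 in the replicates. The summits of mir-4977 and mir-3643 thus count for the host start as well. mir-1012, in an intron of the lysosomal enzyme receptor gene Lerp, had 1019.1 (rank 393) at the starts of Lerp and IntS12, with 564.4 and 463.7 in replicates 1 and 2. mir-4978 lies antisense in an intron of mam, which encodes the Notch coactivator Mastermind, and had 1247.8 (rank 301) outside promoters. Its rank differed between the replicates, at 515 and 219.

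For others the strongest nearby summit was not at the start of a gene that the hairpin overlaps. mir-9380, in an exon of CG7352, had 1328.2 (rank 268) and 1134.9 (rank 353) at the promoter of the autophagy gene Atg13. mir-4942, in an exon of ND-MLRQ, had 641.4 (rank 812) at alpha-Cat, the gene of alpha-catenin. Exon overlap was counted on either strand, and neither CG7352 nor ND-MLRQ was found to hold its whole hairpin on the same strand. mir-4949, in an exon of the ATP synthase subunit gene ATPsynC, had 763.8 (rank 617) at CG12054 and 155.7 at ATPsynC itself. mir-2496, outside other genes on X, had 589.6 (rank 912) at PIG-K and 4 weaker summits. mir-9377, in an intron of the RNA decay gene Tis11, had 769.1 (rank 608) and 571.6 (rank 958), and neither was within 500 bp of a TSS.

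Across all 61 summits, 40 (65.6%) lay within 500 bp of a TSS of a gene other than a microRNA, beside 54.5% of all final summits. Of the 40, 20 were at the TSS of a host on the hairpin's strand, 3 at that of a host on the other strand and 17 at that of no host. The remaining summits were in introns (11), exons (6) or intergenic sequence (4). The strongest summit lay upstream of the hairpin on its strand for 29 members from 26 loci and downstream for 14 members from 12 loci. It was at the TSS of a same-strand host for 12 of the 29 and for 2 of the 14. Such a host always has its first start upstream of the hairpin, so this split is largely fixed by the definition. Nothing is read from it or from the excess of upstream summits. The median distance of the strongest summit was 883 bp.

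**Figure D2:**
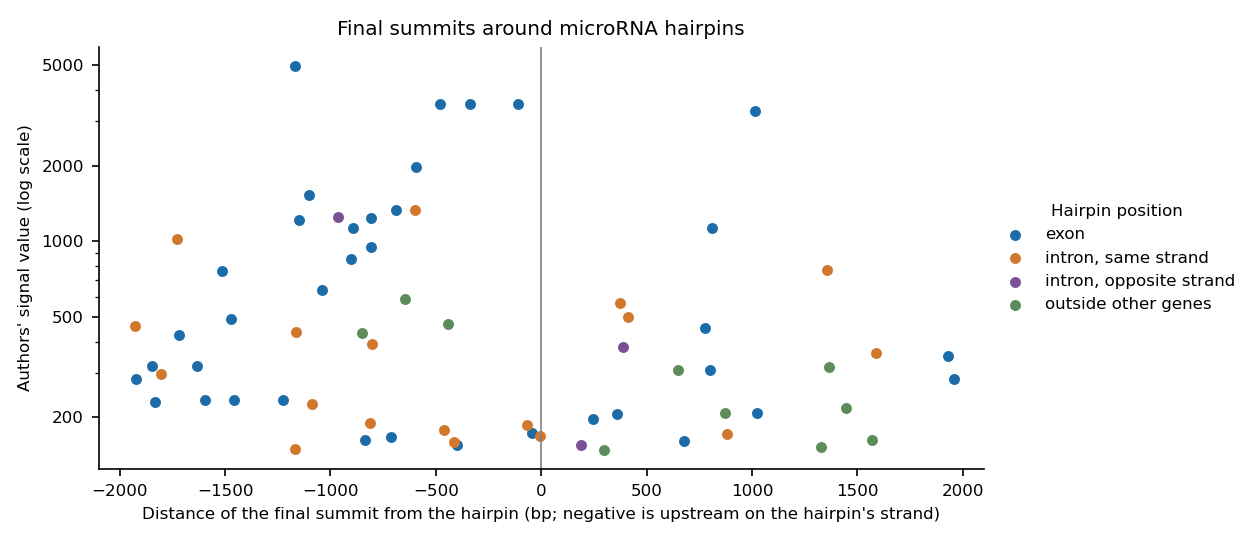
Each point is a final summit and a microRNA hairpin within 2000 bp of it, with the distance on the horizontal axis (bp, negative upstream on the hairpin's strand) and the authors' signal value on the vertical log axis. Colours give the position of the hairpin. The strongest points, at 4962.6 and 3496.5, lie upstream, the mir-2b-1 point at 3303.8 lies downstream, and all are exonic hairpins.

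The members were then grouped by position. Of the 260 hairpins, 95 overlapped an exon of another gene on either strand. Another 99 lay in an intron on the same strand, 18 in an intron on the opposite strand and 48 outside other genes. The 95 were not split by strand, so not all of them are part of the transcript they overlap. For mir-87, mir-4942 and mir-9380, which had a final summit, no gene was found to hold the whole hairpin on its strand. Exonic hairpins had a final summit in 23 of 95 cases (24.2%; exact interval 16 to 34.1), beside 18.8% of all exonic bases. Among them were 49 in exons of noncoding RNA genes only, of which 14 (28.6%; 16.6 to 43.3) had one and 40 (81.6%; 68 to 91.2) had a pooled candidate. The bases of noncoding RNA exons gave 19.8% and 59.5%. For pooled candidates the exonic, intronic and intergenic bases gave 47.3%, 48.2% and 36.7%, and 65.3%, 53% and 45.8% of the hairpins there had one. The 14 came from 11 loci and the 49 from 34. The 8 hairpins from mir-6-3 to mir-309 share 1 pooled candidate of 42.15 (rank 26452), so the 40 are not independent. mir-92b, which overlaps exons of both jigr1 and lncRNA:CR45917, had a final summit and is counted among the 95 but not among the 49.

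Intronic hairpins had a final summit in 15 of 117 cases (12.8%; exact interval 7.36 to 20.3), beside 13.2% of intronic bases, with 13 of 99 on the same strand and 2 of 18 on the opposite strand. The 2 antisense ones were mir-4978 in mam and mir-4957 in the topoisomerase gene Top1. Outside other genes, 5 of 48 (10.4%; 3.47 to 22.7) had one, beside 8.32% of intergenic bases: mir-305, mir-955, mir-969, mir-2496 and mir-4981. Every class share of the arm bases lay within the interval of its hairpins, for final summits. For pooled candidates, the 47.3% of exonic bases lay below the interval of exonic hairpins (54.8 to 74.7). The 59.5% of noncoding RNA exon bases also lay below theirs (68 to 91.2). The intronic and intergenic shares lay inside theirs. Clustered hairpins share candidates, and these differences were not tested. The median distance to the nearest final summit was 6225 bp for exonic and 14386.5 bp for intergenic hairpins.

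**Figure D3:**
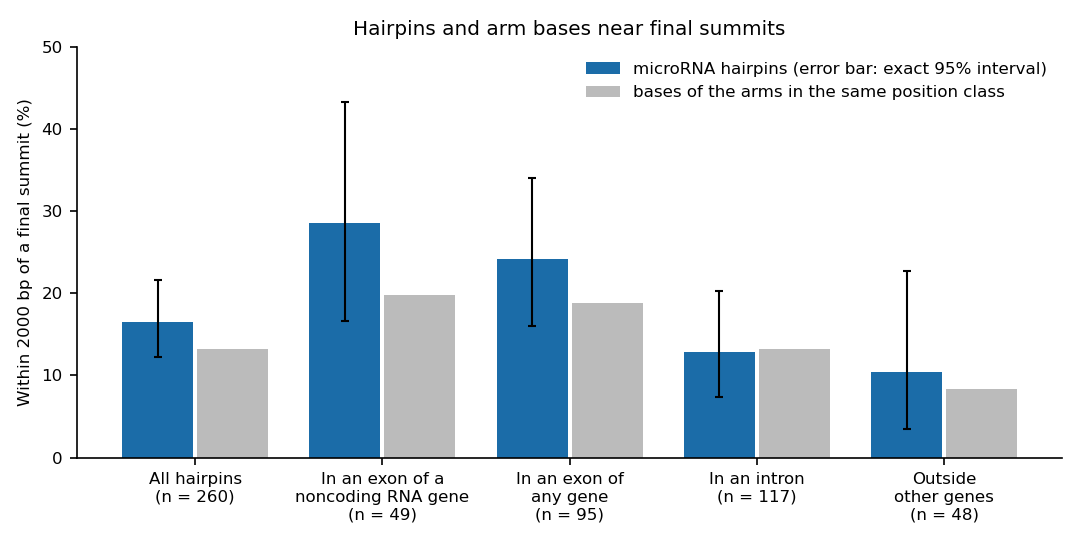
Share of hairpins within 2000 bp of a final summit by position (blue, with exact 95% intervals), beside the share of all arm bases in the same position class (grey). The noncoding class leaves out mir-92b, which also overlaps a protein-coding exon. Exonic hairpins stand at 24.2% against 18.8% of exonic bases and intronic ones at 12.8% against 13.2%.

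**Figure D4:**
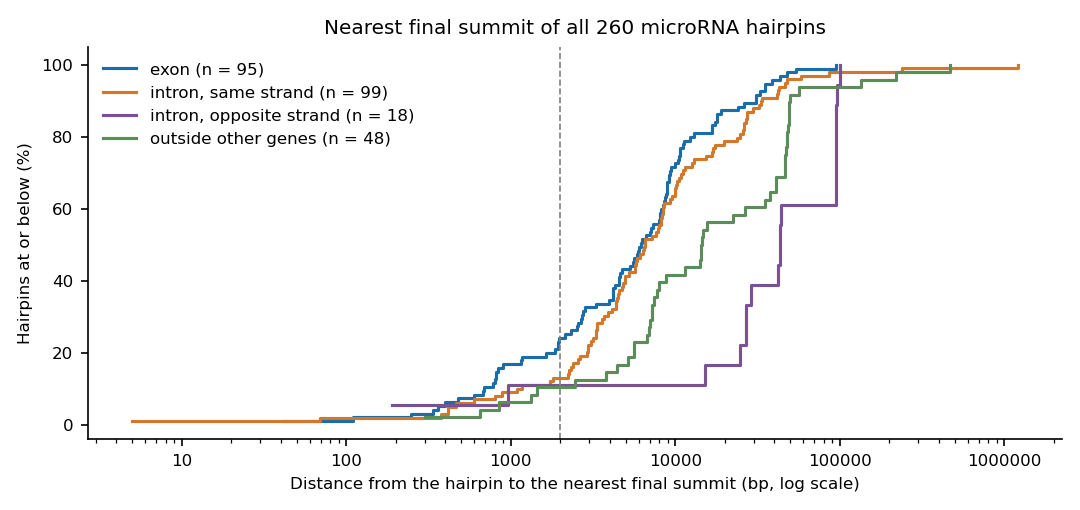
Cumulative share of the 260 hairpins by distance to the nearest final summit (log scale), by position, with the dashed line at 2000 bp. The exonic curve reaches 24.2% at the line, and hairpins outside other genes reach 10.4%.

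A hairpin in an intron can be transcribed from a host start that is far away, so the starts of the hosts were examined too. Of 89 protein-coding genes that hold an intronic hairpin on their own strand, 33 (37.1%) had a final summit within 500 bp of a TSS, beside 25.1% of all 13968 protein-coding genes. The hosts were longer, with a median of 14358 bp against 2164.5 bp, and had a median of 2 TSS positions against 1, and the part of this in the share was not tested. The strongest were kis, the chromatin remodeller gene that holds mir-965, with 16948.7 (rank 7), and E2f1, the cell cycle transcription factor gene that holds mir-11 and mir-998, with 6893.1 (rank 47). The E2f1 summit lay 10357 bp upstream of mir-11, with replicate ranks of 61 and 36. spi, which encodes an EGFR ligand and holds mir-2a-1, mir-2a-2 and mir-2b-2, had 1014.0 (rank 395). Of the 33 noncoding RNA genes with an exonic member on their strand, 6 (18.2%) had a final summit at a TSS, beside 8.79% of 2548 noncoding RNA genes. Their length and number of TSS positions were not compared with those of other noncoding RNA genes, and this difference was not tested. Over all positions, 64 of the 260 members had a final summit at the TSS of a same-strand host, 42 of which had none within 2000 bp of the hairpin. Members of 1 host share its summits, and the host genes with such a summit numbered 56. This count has no matched share over other genes, and no excess is read from it.

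jigr1 links the hairpins to the protein family of the ChIP target, since it encodes another MADF-domain protein. mir-92a lies in its intron and mir-92b in an exon. The summit near mir-92a had 502.3 (rank 1194), with 335.6 in replicate 1 (rank 871) and 154.3 in replicate 2 (rank 2263), 413 bp downstream of the hairpin and -233 bp from a TSS of jigr1. The summit near mir-92b had 453.0 (rank 1383), with 261.8 (rank 1290) and 185.7 (rank 1734) in the replicates, 775 bp downstream and at no TSS. Whether either peak relates to the hairpins or to jigr1 was not tested.

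Clusters were defined as hairpins on 1 strand with at most 10000 bp between neighbours. They numbered 22 and held 79 members, and counting each cluster as 1 gives 203 loci, of which 38 (18.7%) had a final summit. Of the clusters, 7 had one. A cluster spans more bases than a lone hairpin, and no matched share was computed for loci or clusters. No excess is read from these counts. All members were within reach in mir-275/mir-305 (307.6 at the promoter of muc), mir-281-2/mir-281-1 (318.4), mir-92a/mir-92b and mir-13b-1/mir-13a/mir-2c. In mir-317/mir-277/mir-34, mir-279/mir-996 and mir-969/mir-210 it was 1 member only. Clustered members had a final summit in 12 of 79 cases (15.2%) and lone ones in 31 of 181 (17.1%). The largest cluster, 12 hairpins from mir-972 to mir-979 on X, had none.

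Many microRNAs of known developmental roles had no final summit within 2000 bp. The let-7 complex, mir-100, mir-let7 and mir-125, which acts at metamorphosis, had no candidate in any list, and its nearest final summit was 5334 bp away. The same held for mir-184, at 8923 bp. mir-9a, which acts on sense organ precursors, had no pooled candidate, and mir-11 had none either. mir-1, a muscle microRNA, had a strongest pooled candidate of 80.67 (rank 12012), and mir-124, of the nervous system, 46.38 (rank 23403). mir-276a had 78.54, mir-7 had 57.55 and mir-278 had 38.06. mir-iab-4 and mir-iab-8, read from opposite strands of 1 hairpin in the bithorax complex, shared 74.31 (rank 13157). mir-10, in the Antennapedia complex, had 52.78 near the hairpin and a final summit of 242.9 at the TSS of its transcript lncRNA:CR42651, 7166 bp upstream. mir-34 had 89.74, mir-996 had 71.59 and mir-309, whose cluster clears maternal messages, had 42.15. mir-263a was not analysed here.

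The strongest candidates that were not final were 143.8 near mir-2491, 138.8 near mir-4911 and 135.4 near the mir-310 cluster. At the edge of the distance limit, mir-277 (1924 bp), mir-87 (1930 bp) and mir-4961 (1959 bp) were just inside, and mir-1009 (2146 bp), mir-1016 (2239 bp) and mir-1004 (2252 bp) just outside.

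The summits near members were recovered in the separate replicate lists. A candidate summit within 100 bp was found for 60 of 61 in replicate 1, for 59 in replicate 2 and for 58 in both. The exceptions were the mir-14 summit in replicate 1, and 1 summit near mir-308 and the one shared by mir-281-1 and mir-281-2 in replicate 2. The final list was made from these lists, so the recovery is not independent of that selection. When each replicate's own 6091 strongest candidates were used alone, 44 members were called in replicate 1 and 46 in replicate 2, and 38 of the 43 were in both. mir-4961 was missing in replicate 1, and mir-375, mir-966, mir-4967 and mir-969 were missing in replicate 2. The mir-4961 summit did have a match within 100 bp in replicate 1, at 141.4 (rank 3051). No replicate 1 summit lay within 2000 bp of that hairpin. Replicate 2 added mir-310, mir-311, mir-312, mir-313, mir-3642, mir-4918 and mir-4962, and replicate 1 added mir-4975 and mir-2491. The summit of 433.0 near mir-4981 had ranks of 831 and 4474.

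The word ACGTAA, searched on both strands, was in 11 of the 61 windows (18%), beside 10.2% of all final windows of the same width. It was in 4 of the 5 strongest, those of the mir-13b-1 cluster, mir-2b-1, mir-4977 and mir-8, and absent from the strongest, at mir-9374. Among summits of rank 1 to 500 it was in 6 of 14, beside 33.6% of all 500. From rank 501 to 2000 it was in 1 of 17 beside 10.9%, and from 2001 to 6091 in 4 of 30 beside 7.09%. In 5 windows it occurred more than once, and copies may overlap, as near mir-4942. ATCGAT, the core of the element bound by Dref, was in 4 (6.56%) beside 5.99%, CGATA in 8 (13.1%) beside 15.9% and GAGAG in 2 (3.28%) beside 9.16%. The windows held 38.7% G+C on average, beside 34.2% over all final summits. These are matches of letters and were not tested.

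Genes of microRNA production and action had final summits at their starts in 7 of 16 cases, beside 25.1% of all protein-coding genes. The strongest was at AGO1, the main microRNA effector, with 13359.7 (rank 16), -173 bp from its TSS, with 7530.7 in replicate 1 (rank 15) and 5997.6 in replicate 2 (rank 19). The same summit is within 500 bp of starts of mRpL53 and CG33155, and which of these genes the peak relates to was not tested. r2d2, a partner of Dicer-2 in RNA interference, had 421.8, shared with Herp. Cbp20, of the cap-binding complex, had 400.2, shared with CG7218. gw, which encodes the AGO1 partner GW182, had 325.7 and Ars2 had 323.4. Tailor, which adds uridines to hairpins of splicing origin, had 238.8, shared with asRNA:CR45907. Nbr, which trims microRNA ends, had 169.0, shared with Noc2. Of the processing enzymes, drosha had a candidate of 113.0 (rank 8266), and pasha and Dcr-1 had no pooled candidate at a TSS. AGO2, Dcr-2, loqs, Hen1, Ranbp21 and Cbp80 had candidates from 43.5 to 139.4.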

How the data were processed

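Values were taken from 4 peak lists of ChIP-seq on 2 replicates of 1 group. Per the manifests deposited with the samples, the authors called candidate regions per replicate and on pooled alignments against 1 control, and made the final list by IDR (irreproducible discovery rate) on dm6. The deposited signal value of each peak ranks peaks within its list. Summits come from the deposited offsets, and the deposited −log10 q-values were not used. The sources used here name no aligner, caller or threshold, and the depth is unknown.

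Summits were set against Ensembl release 115 and the RefSeq genome, whose arm lengths hold all peaks. Annotated mature products and transposable elements did not count as other genes, and exons on either strand took precedence over introns. Tables were made in Python 3.11.15 with pandas 2.3.3 and numpy 2.4.6, intervals with scipy 1.17.1, and plots with matplotlib 3.10.9. Exact Clopper-Pearson intervals cover counting over genes that are not independent. No statistical test was run. The code that measures distances was checked on summits placed at known distances.

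Members and lists were chosen with earlier results of these data known. The text names members near the 20 strongest summits, a fixed list of well-known microRNAs, the 3 strongest candidates that were not final, the 3 on each side of the distance limit, and 16 genes of microRNA production. Members named for their hosts, clusters, seeds or replicate differences were chosen after their values were seen.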

Additional observations from a re-analysis of the deposited data

How the results depend on the processing

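No paired analysis was possible because there is 1 group. Distance moved the counts most. Members with a final summit (43) numbered 15 at 500 bp and 92 at 5000 bp, intronic ones (15) 7 and 43, and those outside other genes (5) 1 at 500 bp, 3 at 1000 bp and 8 at 5000 bp. Members with a pooled candidate (146) numbered 59 at 500 bp. Among the 3045 final peaks of higher signal, intronic members numbered 9 and those outside other genes 3. Leaving out a replicate gave 44 to 46 members with a final summit, 16 to 17 intronic ones, 5 to 8 outside other genes and 132 to 155 with a candidate. Clusters with a final summit (7) numbered 4 with gaps of at most 1000 bp, and intronic hosts with one at a TSS (34) numbered 22 within 250 bp. Of the alternatives run, 25 left the count within 1.5 times of its value and 13 did not. The depth that limits weak peaks is unknown.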

Other observations

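Hairpins with symbol numbers up to 400, with let-7, bantam and the iab hairpins, include most of the long-studied microRNAs, and this split was chosen after the data were seen. They had a final summit in 19 of 85 cases (22.4%; exact Clopper-Pearson 95% interval 14 to 32.7), and those with higher numbers in 24 of 175 (13.7%; 8.99 to 19.7). Pooled candidates lay near 60 (70.6%; 59.7 to 80) and 86 (49.1%; 41.5 to 56.8), beside 44.3% of all arm bases. Of exonic bases 47.3% lay near one, and of bases in noncoding RNA exons 59.5%. Clustered hairpins can share 1 candidate. The 19 came from 14 loci and the 24 from 24. Of all arm bases 13.2% lay within 2000 bp of a final summit, of exonic bases 18.8% and of bases in noncoding RNA exons 19.8%. The share of all arm bases lies below the interval of the lower-numbered hairpins and inside that of the others. The exonic shares lie inside the interval of the lower-numbered hairpins, not all of which are exonic. The difference between the groups was not tested.

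By arm, 9 of 56 hairpins on 2L, 11 of 55 on 2R, 5 of 31 on 3L, 11 of 58 on 3R and 7 of 58 on X had a final summit, and neither of the 2 on chromosome 4 had one. The share over all arm bases was 13.2%, which lies inside the exact interval of every one of these arms. That share includes Y, which holds no peak, and was not computed for each arm, so it is not a matched share. No difference between arms is read from the counts. Over the members with a final summit, the median signal of the strongest one was 307.6 on 2L, 433.0 on 2R and 493.1 on 3L. It was 1019.1 on 3R and 283.8 on X, from 11 and 7 members, and was not tested. The hairpins of 3R include the mir-13b-1 cluster, whose 3 members share 1 summit.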
